A study of Mus musculus with 40 samples.

Results

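The genes described are E-cadherin (Cdh1) and 9 integrin subunits, Itga2b, Itgb3, Itga4, Itgb7, Itgb1, Itgav, Itga5, Itga6 and Itgb2. They were chosen by symbol as adhesion molecules of mast cells and skin, and make up 10 of the 23812 rows of the expression table. Messenger RNA was sequenced from mouse ear skin, from mast cells sorted from skin and from cultured mast cells, in 40 libraries that form 10 groups of 4. The DTR groups, from skin and from sorted cells, came from mice carrying the C57BL/6 allele Gt(ROSA)26Sortm1(HBEGF)Awai, a diphtheria toxin receptor switched on by Cre, crossed to the Mrgprd-Cre knock-in Mrgprdtm1.1(cre)And of the stock B6.129S1(Cg). In these mice Cre is driven from the locus of MrgprD, a receptor of nonpeptidergic sensory neurons, so diphtheria toxin (DT) removes those neurons. The Cre groups carried the same Mrgprd-Cre knock-in without the toxin receptor. The design text gives DT to both genotypes, for 3 to 4 weeks, whereas the treatment labels list DT and acetone:olive oil (4:1) for DTR mice and acetone:olive oil alone for Cre mice, and this difference could not be settled. Ears of C57BL/6J mice received 50 mM β-alanine (β-ala), an agonist of MrgprD, or PBS once daily for 2 days. Mast cells of C57BL/6J mice were grown from the peritoneum and kept for 6 h in glutamate-free buffer with 4 mM glutamate or vehicle, or for 48 h with 50 uM NS102, a glutamate receptor antagonist, or vehicle. The labels give no age and no sex, and do not say whether replicates came from separate animals or cultures, so every p-value below measures only the spread between these libraries, which may be technical. The skin libraries are labelled epidermal but described as whole ear, and they held keratinocyte, muscle and fat transcripts. The neurons' cell bodies lie outside the skin sampled, so these libraries hold no direct check of their loss.

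Integrins are surface receptors made of an alpha and a beta chain, and the pairing decides what the receptor binds. Beta 1 pairs with many alpha chains, among them alpha 4, alpha 5, alpha 6 and alpha v, and so links cells to fibronectin, laminins and VCAM-1. Beta 7 pairs with alpha 4 to bind MAdCAM-1 and VCAM-1, and with alpha E to bind E-cadherin; mouse mast cell progenitors use it to enter tissues. Beta 3 pairs with alpha IIb, best known from platelets and also carried by mouse mast cells, and with alpha v. Beta 2 is restricted to leukocytes, where it pairs with alpha L, alpha M, alpha X or alpha D to bind ICAMs. E-cadherin joins neighbouring epithelial cells at adherens junctions and also occurs on some leukocytes.

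Values are FPKM, fragments scaled to transcript length and to library size, as deposited, and read depth is not given in the sources used here. Total FPKM was 427797 to 508485 in skin, 117574 to 197003 in sorted cells and 355726 to 432984 in cultures. All 12 mast cell markers were detected in every sorted and cultured group, and their summed level was 18242 to 29917 FPKM in DTR sorted cells, against 9912 to 14714 FPKM in Cre sorted cells. The male gene Ddx3y was at 4.42 to 19.2 FPKM in the sorted cells and the β-ala and PBS skin, and listed at 0 in every library of DTR and Cre skin and of the cultures. Cre skin and Cre sorted cells are thus of one stock but differ in this gene, so material and sex cannot be told apart between them. Cultures and Cre sorted cells differ in this gene and in stock as well. The β-ala and PBS skin carries the gene as the sorted cells do, but differs from them in stock and treatment. Itga2b was at most 1.195 FPKM in that skin and at least 39.6 FPKM in sorted cells. The part of sex in the Itga2b levels was not tested.

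Each of the 10 genes had its own distribution over skin, sorted and cultured cells, and the 2 that stood highest in the cultures and in Cre sorted cells were Itga2b and Itgb7. In DTR sorted cells Itgb1 stood above Itgb7 in every library. Itga2b (chr11:102314610-102331197, mm9) was at 0.587 to 1.60 FPKM in all 16 skin libraries. Sorted mast cells held 80.0, 78.3, 48.6 and 46.7 FPKM in DTR mice and 55.1, 58.7, 39.6 and 51.6 FPKM in Cre mice. The cultures were higher again, at 173 to 260 FPKM in all 16 libraries. Cre sorted cells averaged 51.2 ± 8.30 FPKM and Cre skin 0.974 ± 0.127 FPKM (SD, n = 4 each). Itgb7 (chr15:102046425-102062366, mm9), the beta chain of the gut-homing receptor, followed the same order of materials. It was at 2.17 to 3.86 FPKM in skin, 22.9 to 34.4 FPKM in DTR sorted cells, 54.0 to 88.1 FPKM in Cre sorted cells and 90.2 to 183 FPKM in the cultures. No library of one material overlapped another material for either gene.

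The 250 bases upstream of the annotated start of these 2 genes (RefSeq, GRCm38.p6, minus strand for both) are printed because both were high in all mast cell groups and low in skin. GGAAG and its reverse complement CTTCC, the core letters that ETS family factors recognise, were searched on both strands and are in capitals.
Itga2b, chr11:102469884-102470133: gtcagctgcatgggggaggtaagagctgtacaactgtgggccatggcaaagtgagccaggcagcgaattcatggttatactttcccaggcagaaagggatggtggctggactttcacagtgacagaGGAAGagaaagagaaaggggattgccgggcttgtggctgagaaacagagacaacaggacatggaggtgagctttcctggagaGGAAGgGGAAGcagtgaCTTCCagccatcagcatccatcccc
Itgb7, chr15:102231936-102232185: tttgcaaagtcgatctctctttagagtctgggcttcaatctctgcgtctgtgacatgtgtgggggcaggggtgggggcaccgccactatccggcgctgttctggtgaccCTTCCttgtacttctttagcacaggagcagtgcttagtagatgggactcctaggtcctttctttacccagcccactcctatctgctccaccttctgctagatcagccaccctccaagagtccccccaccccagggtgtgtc
The Itga2b stretch held 4 matches and the Itgb7 stretch 1. The stretches of Itgb1 and Itgav held 2 each, that of Itga5 held 1 and that of Itga4 held 0. At least 1 match stood in 64.1% of 32851 RefSeq promoters of the same length, and 4 or more in 3.39%. Sequence entries were matched for 6 of the 10 genes, Itga2b, Itga4, Itgb7, Itgb1, Itgav and Itga5. None of these 6 stretches held GATAA or its complement TTATC, the letters bound by GATA factors, or CAGGTG or its complement CACCTG, an E-box. GATAA or its complement was in 22.6% of the promoters and CAGGTG or its complement in 17.2%. These are matches of letters in a window and show no binding.

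The other genes were spread differently. Cdh1 (chr8:109127267-109194146, mm9) was at 75.1 to 106 FPKM in skin and at 29.6 to 40.5 FPKM in Cre sorted cells, and it was listed at 0 in 15 of the 16 culture libraries. Itga6 (chr2:71625139-71694815, mm9), whose alpha 6 chain joins beta 1 or beta 4 to bind laminins and anchors basal keratinocytes, was at 39.7 to 48.7 FPKM in skin and at most 4.31 FPKM in any mast cell library. Itgb1 (chr8:131209553-131257479, mm9) was expressed in every library, at 57.6 to 68.0 FPKM in skin, 32.7 to 54.6 FPKM in sorted cells and 19.5 to 30.6 FPKM in the cultures. Itgav (chr2:83564553-83647073, mm9) was at 7.21 to 11.7 FPKM in skin, 1.70 to 4.30 FPKM in the cultures and 0.527 to 1.36 FPKM in sorted cells. Itgb2 (chr10:76993092-77028419, mm9) had its highest group in Cre sorted cells, at 21.5 to 39.8 FPKM, and its lowest in DTR sorted cells, at 0 to 0.284 FPKM. Itgb3 (chr11:104469313-104531785, mm9) had the same highest and lowest groups, at 2.95 to 4.70 FPKM in Cre sorted cells and 0.0154 to 0.136 FPKM in DTR sorted cells. Itga4 (chr2:79095582-79173271, mm9) never exceeded 2.48 FPKM, and Itga5 (chr15:103174717-103197179, mm9), the alpha chain of the main fibronectin receptor, stayed between 1.12 and 6.52 FPKM.

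**Figure D1:**
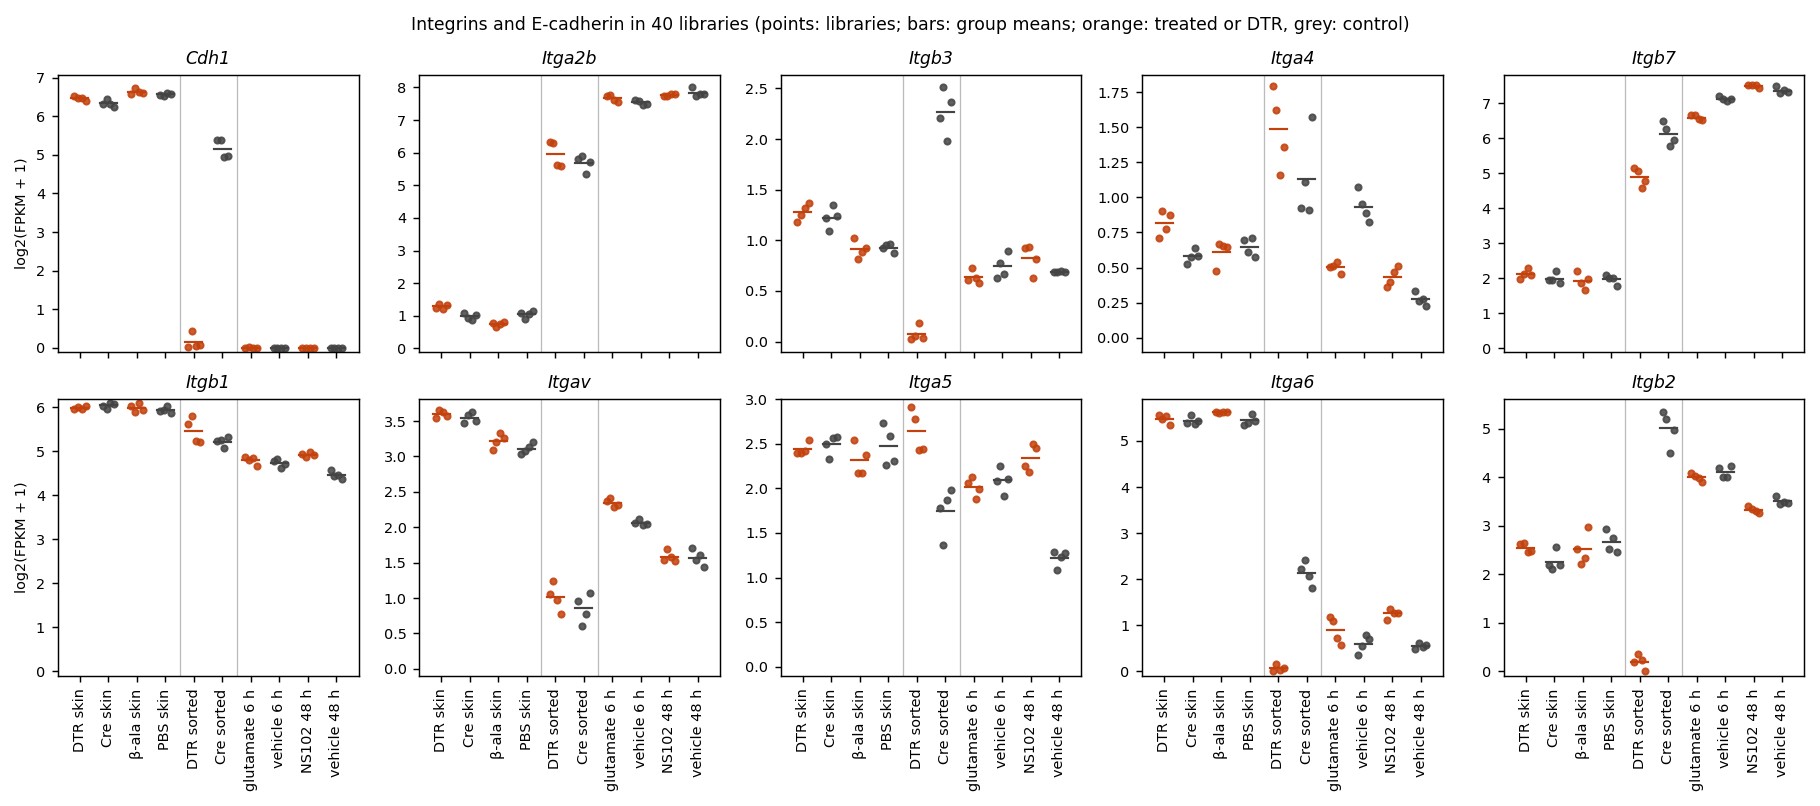
Each panel plots log2(FPKM + 1) of 1 gene in all 40 libraries, by group along the x axis, with bars at the group means. Itga2b and Itgb7 stand highest in the cultures, Cdh1 and Itga6 in skin, and Cdh1, Itgb2, Itgb3 and Itga6 lie near 0 in the DTR sorted cells.

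Few neighbouring groups in these orders were clearly apart within a material. For Cdh1 the 4 skin groups followed β-ala, PBS, DTR and Cre, with overlapping neighbours throughout, and Cre sorted cells stood apart below them at 35.2 ± 6.14 FPKM (SD, n = 4). For Itga2b the 4 culture groups ran 48 h vehicle, NS102, glutamate and 6 h vehicle, each overlapping the next. For Itgb7 the culture groups ran NS102 and 48 h vehicle, which overlapped, then 6 h vehicle and glutamate, each apart from the next. For Itgav every culture neighbour was apart except NS102 and 48 h vehicle, with means of 1.998 and 1.977 FPKM. For Itga5 the 9 highest groups formed an unbroken chain of overlapping neighbours, and 48 h vehicle alone stood apart at 1.33 ± 0.148 FPKM (SD, n = 4). For Itgb1 the 4 skin groups overlapped their neighbours, as did the 2 sorted groups.

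The step from Cre skin to Cre sorted cells was tested in limma on log2(FPKM + 1), with Benjamini-Hochberg adjustment over all genes that reached 1 FPKM in 4 or more of the 8 libraries. An adjusted p under 0.05 is the threshold throughout. Of the 9 genes tested here 4 were higher and 5 lower in sorted cells, where 89.8% of all 12693 genes tested passed (9.85% higher, 80.0% lower), so passing says little. The median of all genes was -1.42 on the log2 scale, and sorted libraries held less total FPKM than skin libraries. Of the genes past the threshold 1250 were higher and 10154 lower, against 5128 higher and 4152 lower once each library was centred on its median. Itga2b was 4.71 higher (SE 0.13) and Itgb7 4.13 higher (SE 0.16), in both scalings far above the median gene. Itgb2 was 2.74 higher (SE 0.19) and Itgb3 1.04 higher (SE 0.13). Itga6 was lower in sorted cells, at -3.31 (SE 0.13), and so was Itgav, at -2.69 (SE 0.12). Cdh1 at -1.17, Itgb1 at -0.82 and Itga5 at -0.74 changed sign on centring, to 0.38, 0.73 and 0.81, so no direction is given for them.

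Cultured cells at 48 h in vehicle were compared with Cre sorted cells in the same way, and all 9 genes tested passed, 3 higher and 6 lower, where 73.9% of genes passed (52.4% higher, 21.5% lower) and 70.1% had no overlap between the groups. The median of all genes was 0.51 higher in the cultures, and the calls split into 4576 higher and 1882 lower, or 3650 and 2507 after centring. Itga2b was 2.15 higher (SE 0.13), Itgb7 1.24 higher (SE 0.15) and Itgav 0.72 higher (SE 0.14) in culture, the last only 0.20 above the median gene. Cdh1, listed at 0 in all 4 libraries of 48 h vehicle, was at 40.4, 40.5, 29.6 and 30.1 FPKM in Cre sorted cells. Itgb3, Itga6 and Itgb2 were lower in culture, at -1.58 (SE 0.14), -1.58 (SE 0.15) and -1.50 (SE 0.17). Itgb1 and Itga5 were lower too, at -0.76 (SE 0.10) and -0.53 (SE 0.16). Cdh1, Itgb3 and Itga6 reached 1 FPKM only in the sorted cells, so their calls could only be lower. In DTR sorted cells Itgb3, Itga6 and Itgb2 averaged 0.0548, 0.0458 and 0.148 FPKM, below the 0.609, 0.463 and 10.3 FPKM of 48 h vehicle. Cre sorted cells also held markers of other leukocytes, given below, whose part was not tested.

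Mast cells sorted from DTR and Cre skin, by a gate not given in the sources used here, differed in 6 of these genes. The question of this comparison is what the loss of MrgprD neurons does to skin mast cells. Cdh1, Itgb2, Itgb3 and Itga6 were near 0 in every DTR library and clearly present in every Cre library, Itgb7 was lower, and Itga5 was higher. Of 9 genes tested, 6 passed, 1 higher and 5 lower, where 35.8% of 8871 genes passed (18.9% higher, 16.9% lower). Cdh1, Itgb2, Itgb3 and Itga6 reached 1 FPKM only in Cre libraries, so they entered the test through the group where they were high. Their calls could only be lower. The 6 that passed had no overlap between the groups, as did 33.5% of all genes. The median of all genes was 0.13 higher in DTR cells.

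Cdh1 was at 0.00678, 0.353, 0.0359 and 0.0516 FPKM in DTR sorted cells, against 40.4, 40.5, 29.6 and 30.1 FPKM in Cre sorted cells. No DTR library came near the lowest Cre library, and the DTR mean was 0.318% of the Cre mean, or 0.0893% without DTR replicate 2. The fitted change was -5.02 on the log2(FPKM + 1) scale (SE 0.23; limma adjusted p = 8.87e-13), a scale that understates the change of genes near 0. The DTR library with the most Cdh1, replicate 2, also held 6.44 FPKM of the basal keratin Krt14, which was at 0.0290 to 0.342 FPKM in the other 3 DTR libraries and 0.0217 to 3.86 FPKM in Cre libraries. In Cre replicate 1, where Cdh1 was at 40.4 FPKM, Krt14 was at 0.0217 FPKM, the lowest of the Cre libraries. The part of keratinocytes in these Cdh1 values was not tested.

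Itgb2 was at 0.139, 0.284 and 0.169 FPKM in 3 DTR libraries and listed at 0 in the fourth, against 39.8, 35.9, 21.5 and 30.2 FPKM in Cre libraries. The fitted change was -4.81 (SE 0.24; limma adjusted p = 3.80e-12). The alpha partners Itgal and Itgam were lower as well. Both reached 1 FPKM only in Cre cells, so a call on them could only be lower. Itgal, the alpha chain of LFA-1, was at 0 to 0.0627 FPKM in DTR cells and 7.02 to 14.4 FPKM in Cre cells, a change of -3.54 (SE 0.24; limma adjusted p = 4.35e-10). Itgam, the alpha chain of Mac-1, was at 0.0112 to 0.111 FPKM in DTR cells and 4.23 to 8.16 FPKM in Cre cells, a change of -2.73 (SE 0.23; limma adjusted p = 8.07e-09).

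Itgb3 was at 0.0154, 0.0419, 0.136 and 0.0260 FPKM in DTR sorted cells, against 3.63, 4.70, 2.95 and 4.14 FPKM in Cre sorted cells. Its change was -2.19 (SE 0.21; limma adjusted p = 6.76e-08). Both of its alpha partners stayed in DTR cells. Itga2b was at 80.0, 78.3, 48.6 and 46.7 FPKM in DTR cells, against 55.1, 58.7, 39.6 and 51.6 FPKM in Cre cells, overlapping groups with a change of 0.27 (SE 0.24; limma adjusted p = 0.405). Itgav was at 1.07, 1.36, 0.959 and 0.704 FPKM in DTR cells and 0.945, 0.527, 0.711 and 1.10 FPKM in Cre cells, and was below the filter. DTR sorted cells held the transcript of alpha IIb with almost none of that of its known beta partner.

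Itga6 was listed at 0 in 1 DTR library and at 0.116, 0.0126 and 0.0542 FPKM in the others, against 3.66, 4.31, 3.21 and 2.52 FPKM in Cre sorted cells. Its change was -2.07 (SE 0.21; limma adjusted p = 1.64e-07). Itgb4, the other laminin receptor chain, was at 1.74 to 3.24 FPKM in DTR cells and 0.558 to 0.791 FPKM in Cre cells. Its change was 1.04 (SE 0.22; limma adjusted p = 8.71e-04). Itgb4 reached 1 FPKM only in DTR cells and Itga6 only in Cre cells. The filter thus fixed the direction of both calls. Itga1, a collagen receptor alpha chain, was at 0.00873 to 0.0439 FPKM in DTR cells and 2.45 to 4.65 FPKM in Cre cells.

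Itgb7 fell to 34.4, 32.04, 22.9 and 26.3 FPKM in DTR sorted cells, against 88.1, 76.3, 54.0 and 61.2 FPKM in Cre sorted cells. The DTR mean was 41.3% of the Cre mean, with a change of -1.24 (SE 0.23; limma adjusted p = 3.07e-04). Of its alpha partners, Itga4 was at 2.48, 2.08, 1.24 and 1.56 FPKM in DTR cells and 0.900, 1.16, 0.880 and 1.97 FPKM in Cre cells, overlapping groups with a change of 0.35 (SE 0.23; limma adjusted p = 0.249). Itgae, the alpha E chain that makes Itgb7 a receptor for E-cadherin, was too low to test, at 0.0237 to 0.250 FPKM in DTR cells and 0.458 to 2.25 FPKM in Cre cells.

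Itga5 rose to 6.52, 5.83, 4.39 and 4.42 FPKM in DTR sorted cells, against 2.42, 1.57, 2.67 and 2.94 FPKM in Cre sorted cells. Every DTR library was above every Cre library, with a change of 0.89 (SE 0.24; limma adjusted p = 0.00641). Its partner Itgb1 was at 48.6, 54.6, 36.4 and 35.9 FPKM in DTR cells and 36.6, 37.1, 32.7 and 39.1 FPKM in Cre cells, which overlapped, with a change of 0.24 (SE 0.22; limma adjusted p = 0.414). DTR replicates 1 and 2 were higher than replicates 3 and 4 for Itga2b, Itgb1, Itga5 and Itgb7. Their total FPKM was higher as well, at 191722 and 185388, against 117574 and 126017. Without replicates 1 and 2 the Itga5 change was 0.69 and its adjusted p 0.0752, and all-gene calls were 541 higher and 1761 lower. Without replicates 3 and 4 the changes of Itga2b and Itgb1 passed, at 0.63 and 0.49, and all-gene calls were 2201 higher and 1029 lower. Under median centring Itga5 passed at 0.90 (limma adjusted p = 0.00154), and Itgb1 also passed (limma adjusted p = 0.0362).

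Markers of several other leukocytes were lower in DTR than in Cre sorted cells. The basophil list shares Gata2 and Fcer1a with the mast cell list, so its sum is not a level of basophils alone. Of 8 basophil markers tested 5 were lower and 1 higher, where 16.9% of all genes were lower and 18.9% higher. The 8 markers summed to 512 to 857 FPKM in DTR cells and 1234 to 1845 FPKM in Cre cells. Among them the basophil protease Mcpt8 was at 1.58 to 2.77 FPKM in DTR sorted cells, against 258 to 467 FPKM in Cre sorted cells, and Prss34 at 0 to 2.79 FPKM in DTR cells, against 20.2 to 74.9 FPKM in Cre cells. The summed level of the 5 neutrophil markers was 0.0497 to 0.264 FPKM in DTR cells and 51.6 to 252 FPKM in Cre cells. The 9 macrophage and monocyte markers summed to 8.01 to 18.3 FPKM in DTR cells and 38.9 to 109 FPKM in Cre cells, and the 6 eosinophil markers to 0.301 to 1.31 FPKM in DTR cells and 11.7 to 22.9 FPKM in Cre cells. The 8 T, NK and innate lymphoid markers summed to 13.7 to 29.99 FPKM in DTR cells and 26.8 to 92.3 FPKM in Cre cells, which overlapped, and the 7 endothelial markers to 0.1003 to 0.413 FPKM in DTR cells and 8.55 to 14.8 FPKM in Cre cells. The part of these cell types in the differences in Cdh1, Itgb2, Itgb3, Itga6 and Itgb7 was not tested. Nor was that of dendritic cells, Langerhans cells or fibroblasts. The 8 keratinocyte markers, which summed to at least 12518 FPKM in each skin library, summed to 0.616 to 9.13 FPKM in DTR sorted cells and 0.0793 to 5.93 FPKM in Cre sorted cells. The 11 platelet and megakaryocyte markers summed to 15.2 to 24.2 FPKM in DTR cells and 7.41 to 16.4 FPKM in Cre cells, most of it Gp1ba in DTR cells, at 12.8 to 21.6 FPKM. Itga2b was above 39 FPKM in every sorted library.

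**Figure D2:**
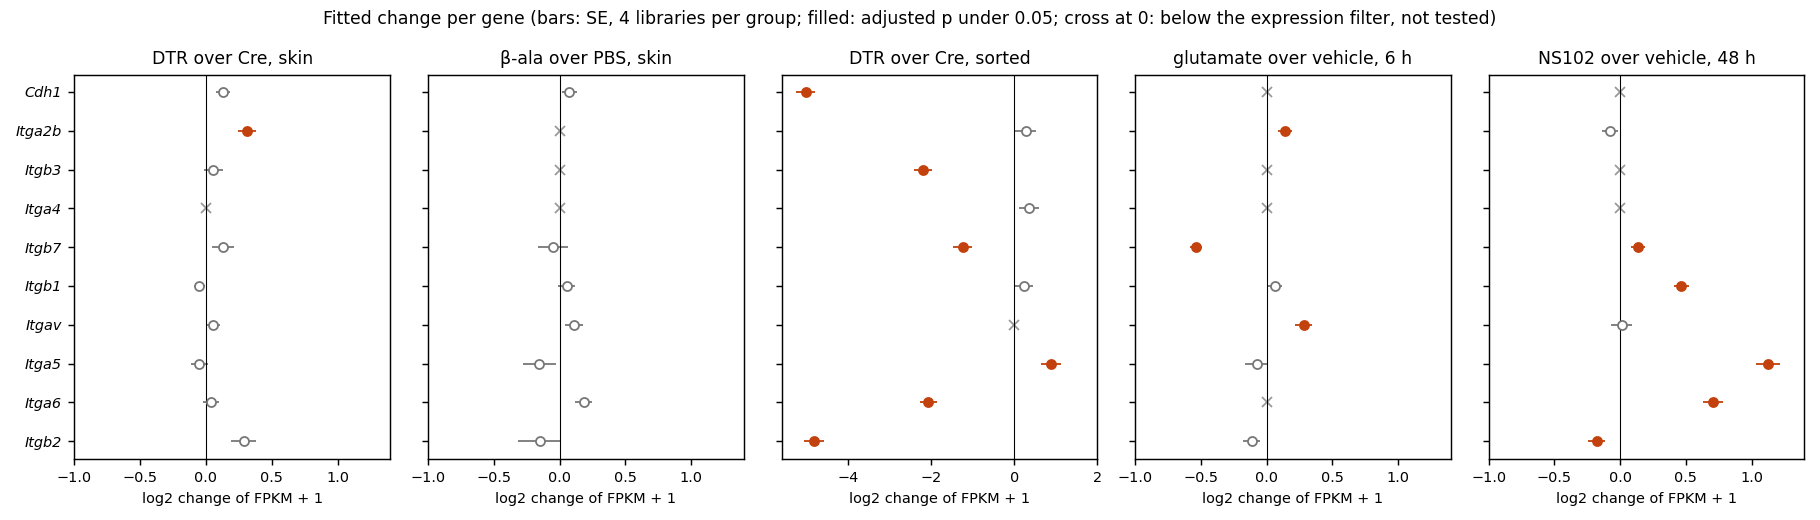
Each panel plots the fitted log2 change of FPKM + 1 per gene in 1 comparison, with bars for the SE (4 libraries per group), on a wider scale for the sorted cells. Filled points passed an adjusted p of 0.05, and crosses at 0 mark genes below the expression filter; the changes of Cdh1 and Itgb2 in sorted cells, at -5.02 and -4.81, stand outside the range of every other panel.

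Whole ear skin of DTR and Cre mice was compared in the same way, but it cannot show a change confined to mast cells. Cdh1 was at least 75.1 FPKM in these skin libraries and at most 40.5 FPKM in sorted cells. Itga6 was at least 39.7 FPKM in this skin and at most 4.31 FPKM in sorted cells. Of 9 genes tested, 1 passed, where 13.6% of 12607 genes passed (7.38% higher, 6.25% lower). Those calls split into 931 higher and 788 lower, against 724 higher and 1029 lower under median centring. Itga2b was at 1.36, 1.60, 1.33 and 1.49 FPKM in DTR skin, against 1.12, 0.926, 0.823 and 1.03 FPKM in Cre skin. Every DTR library was above every Cre library, with a change of 0.31 (SE 0.070; limma adjusted p = 0.0202), and without DTR replicate 2 the adjusted p was 0.0580. Mast cell markers were higher too, all 9 tested past the threshold, with a summed level of 203 to 247 FPKM in DTR skin and 69.8 to 91.0 FPKM in Cre skin. In bulk skin, a change in the number of cells of a type and a change in RNA per cell cannot be told apart. All 5 skeletal muscle and all 5 adipocyte markers tested were lower in DTR skin, by median log2 changes of -1.28 and -1.15; their part in these values was not tested.

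Among the other genes in skin, Itgb2 was at 5.11, 5.21, 4.51 and 4.56 FPKM in DTR skin and 3.55, 3.31, 4.88 and 3.55 FPKM in Cre skin. Cre replicate 3 lay among the DTR libraries, and the change of 0.29 (SE 0.094) did not pass (limma adjusted p = 0.0662). It passed without that library, with an adjusted p of 0.0102. Cdh1 was at 91.8, 87.2, 87.1 and 82.9 FPKM in DTR skin and 78.8, 86.8, 78.0 and 75.1 FPKM in Cre skin, a change of 0.13 (SE 0.051; limma adjusted p = 0.109), with an adjusted p of 0.0493 without Cre replicate 2. Itga4 was below the filter, at 0.636, 0.868, 0.708 and 0.836 FPKM in DTR skin and 0.440, 0.490, 0.555 and 0.495 FPKM in Cre skin. These groups did not overlap, as was so for 21.4% of genes tested, and with all genes tested its change was 0.24 (limma adjusted p = 0.0332). Itgb3, Itgb7, Itgb1, Itgav, Itga5 and Itga6 changed by -0.051 to 0.13, with adjusted p of 0.322 to 0.674.

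The difference of the ablation effects, meaning the DTR over Cre changes of sorted cells minus those of skin, was tested over 16 libraries. Of the 10 genes 6 passed, where 27.7% of 13153 genes passed (14.4% higher, 13.3% lower). The differences were -5.15 for Cdh1, -5.10 for Itgb2, -2.25 for Itgb3, -2.10 for Itga6, -1.37 for Itgb7 and 0.94 for Itga5, with SE of 0.14 to 0.23 and limma adjusted p of at most 0.00201. For Itga2b the difference was -0.038 (SE 0.24), and the p that misses the threshold does not show that the effects were equal. Both sorted groups carried Ddx3y transcripts and both skin groups did not, so material and sex cannot be told apart in this difference. Skin also holds cells other than mast cells, whose part was not tested.

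Between β-ala and PBS skin 0 of the 7 genes tested passed (limma adjusted p), where 0.212% of 12709 genes passed (0.0157% higher, 0.197% lower), and 1 of the 7, Itga6, had an unadjusted p under 0.05. Itga6 was at 48.5, 48.1, 48.7 and 48.4 FPKM in β-ala skin, all above the 39.7, 41.2, 47.3 and 42.4 FPKM of PBS skin. Its change was 0.18 (SE 0.064; limma adjusted p = 0.407), and 6.43% of genes tested had no overlap between these groups. Itga2b was below the filter, at 0.730, 0.587, 0.696 and 0.757 FPKM in β-ala skin and 1.14, 0.872, 1.07 and 1.195 FPKM in PBS skin. Every β-ala library was below every PBS library, and with all genes tested the change was -0.29 (SE 0.059; limma adjusted p = 0.174). Summed mast cell markers were at 5.94 to 8.80 FPKM in β-ala skin, against 214 to 263 FPKM in PBS skin. Cdh1 was at 94.2, 106, 97.8 and 96.8 FPKM in β-ala skin and 93.4, 91.5, 95.7 and 94.3 FPKM in PBS skin, a change of 0.073 (SE 0.057). Itgb7, Itgb1, Itgav, Itga5 and Itgb2 changed by -0.16 to 0.11, with adjusted p of 0.648 to 0.911.

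Cultured mast cells held less Itgb7 and more Itgav after 6 h with glutamate than with vehicle. Of 6 genes tested, 3 passed, 2 higher and 1 lower, where 79.3% of 8297 genes passed (16.9% higher, 62.4% lower). The median of all genes was -0.33, and the calls split into 1403 higher and 5177 lower, or 3703 higher and 2611 lower after median centring. Directions below hold in both scalings unless said otherwise. Itgb7 was at 99.8, 99.6, 91.6 and 90.2 FPKM with glutamate, against 146, 138, 132 and 139 FPKM with vehicle. The groups were far apart, as were those of 74.3% of genes, with a change of -0.54 (SE 0.044; limma adjusted p = 1.07e-07), or -0.13 after centring (adjusted p = 0.0104). Itgav was at 4.20, 4.30, 3.89 and 3.98 FPKM with glutamate, against 3.18, 3.35, 3.10 and 3.12 FPKM with vehicle. Its change was 0.28 (SE 0.063; limma adjusted p = 0.00104), or 0.69 after centring.

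Itga2b was at 213, 219, 196 and 189 FPKM with glutamate and 196, 193, 173 and 178 FPKM with vehicle, overlapping groups with a change of 0.14 (SE 0.052; limma adjusted p = 0.0241). That call was lost when any of 4 libraries was left out, glutamate replicates 1 and 2 and vehicle replicates 3 and 4, with adjusted p of 0.0653 to 0.0819, and with no filter (0.0699). After centring the change was 0.55 (adjusted p = 2.14e-07). Itgb1 changed by 0.065 (SE 0.055), Itga5 by -0.076 (SE 0.085) and Itgb2 by -0.11 (SE 0.065), none past the threshold. After centring these 3 genes were higher and passed, at 0.48, 0.34 and 0.30, which for Itga5 and Itgb2 is the opposite sign. Itga4 was below the filter, at 0.421, 0.426, 0.451 and 0.367 FPKM with glutamate and 1.11, 0.931, 0.850 and 0.773 FPKM with vehicle. No library of the groups overlapped, and with all genes tested the change was -0.43 (SE 0.056; limma adjusted p = 2.10e-04). In that setting 7036 of 15469 genes were called lower. Itga4 was not tested after centring, so its direction is given for deposited FPKM only. Itga6, also below the filter, was at 1.27, 1.12, 0.661 and 0.489 FPKM with glutamate and 0.276, 0.470, 0.728 and 0.615 FPKM with vehicle, which overlapped.

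After 48 h with NS102 Itga5, Itga6 and Itgb1 were higher than with vehicle. Of 7 genes tested, 5 passed, 4 higher and 1 lower, where 70.5% of 8373 genes passed (30.8% higher, 39.7% lower). The median of all genes was -0.057. Itga5 was at 3.75, 3.53, 4.63 and 4.46 FPKM with NS102, against 1.44, 1.12, 1.35 and 1.42 FPKM with vehicle. The lowest NS102 library was above the highest vehicle library, and the NS102 mean was 3.07-fold the vehicle mean, with a change of 1.12 (SE 0.090; limma adjusted p = 5.06e-07). Itga6 was at 1.18, 1.56, 1.42 and 1.402 FPKM with NS102, against 0.402, 0.532, 0.441 and 0.478 FPKM with vehicle, also apart. Its mean was 3.00-fold the vehicle mean, with a change of 0.71 (SE 0.075; limma adjusted p = 4.51e-06). Itga6 reached 1 FPKM only with NS102, so it entered the test through the group where it was high. Its call could only be higher. Itgb1 was at 29.6, 28.1, 30.6 and 29.04 FPKM with NS102, against 22.7, 20.9, 20.9 and 19.5 FPKM with vehicle. Its change was 0.46 (SE 0.057; limma adjusted p = 1.53e-05), and groups without overlap made up 64.4% of all genes tested.

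The beta chains Itgb7 and Itgb2 changed little. Itgb2 was at 9.56, 9.12, 8.79 and 8.58 FPKM with NS102, against 11.1, 9.96, 10.3 and 9.998 FPKM with vehicle, a change of -0.18 (SE 0.062; limma adjusted p = 0.0217). The adjusted p was 0.0533 without NS102 replicate 3, 0.0632 without NS102 replicate 4 and 0.0553 without vehicle replicate 1. Itgb7 was at 181, 181, 183 and 170 FPKM with NS102 and 177, 156, 163 and 158 FPKM with vehicle, overlapping groups with a change of 0.13 (SE 0.053; limma adjusted p = 0.0414). Median centring (adjusted p = 0.132) ended that call, as did leaving out any of NS102 replicates 1, 2 and 3 or vehicle replicates 2, 3 and 4 (adjusted p = 0.0764 to 0.128). Itga2b was at 213, 210, 220 and 220 FPKM with NS102 and 260, 214, 220 and 221 FPKM with vehicle, a change of -0.079 (SE 0.062; limma adjusted p = 0.270). Itgav changed by 0.012 (SE 0.080). Itga4 was below the filter, at 0.285, 0.316, 0.382 and 0.421 FPKM with NS102 and 0.257, 0.201, 0.213 and 0.167 FPKM with vehicle, which did not overlap. With all genes tested its change was 0.16 (SE 0.037; limma adjusted p = 0.00774), where 3624 of 15280 genes were called higher. Itgb3, at 0.545 to 0.905 FPKM with NS102 and 0.606 to 0.616 FPKM with vehicle, overlapped.

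The difference of the culture effects, NS102 minus glutamate, passed for 6 of 7 genes tested, where 75.9% of 8896 genes passed (52.5% higher, 23.3% lower). All-gene calls split into 4674 higher and 2076 lower, or 2716 and 4096 after centring. Itga5 differed by 1.198 (SE 0.12; limma adjusted p = 6.70e-08) and Itgb7 by 0.67 (SE 0.069; limma adjusted p = 5.76e-08), Itgav by -0.27 (SE 0.094) and Itga2b by -0.22 (SE 0.085). Itgb1, at 0.40, and Itga6, at 0.41, lost their calls and changed sign after centring, to -0.051 and -0.041. Centring also gave 0.75 for Itga5, 0.22 for Itgb7, -0.72 for Itgav and -0.67 for Itga2b, all still past the threshold, and Itgb2 passed at -0.51 (adjusted p = 9.45e-05). The Itga6 call was also lost with a pseudocount of 0.1 or no filter (adjusted p = 0.0584 and 0.0594). Leaving out NS102 replicate 2, 48 h vehicle replicate 1, or replicate 3 or 4 of glutamate or of 6 h vehicle ended it too (0.0501 to 0.0722). The Itga2b call was lost without 48 h vehicle replicate 1, glutamate replicate 1 or 2, or 6 h vehicle replicate 3 or 4 (adjusted p = 0.0507 to 0.0614). The 2 treatments differ in duration and medium as well as in agent.

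Vehicle cultures at 48 h also differed from those at 6 h, in all 6 genes tested, where 71.9% of 8467 genes passed (34.2% higher, 37.7% lower). The 48 h cells were higher in Itga2b, by 0.30 (SE 0.060), and in Itgb7, by 0.23 (SE 0.048). They were lower in Itga5, at -0.87 (SE 0.084), Itgb2, at -0.60 (SE 0.068), Itgav, at -0.50 (SE 0.075), and Itgb1, at -0.28 (SE 0.060). The labels give the buffer for the 6 h cultures only, so time and medium cannot be told apart. Itga4, below the filter, was at 0.257, 0.201, 0.213 and 0.167 FPKM at 48 h and 1.11, 0.931, 0.850 and 0.773 FPKM at 6 h. These groups did not overlap, nor did those of 64.5% of genes tested. With all genes tested the Itga4 change was -0.66 (SE 0.054; limma adjusted p = 1.88e-05), where 4672 of 15434 genes were called lower.

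The remaining 17 integrin subunits gave these chains their possible partners. In the 3 comparisons within the cultures 0 of the 17 passed the expression filter. Itgb2 stood at 8.58 to 17.8 FPKM there while its alpha partners Itgal, Itgam and Itgax each stayed below 0.2 FPKM. Itgb7 stood at 90.2 to 183 FPKM while Itga4 stayed at or below 1.11 FPKM and Itgae below 0.1 FPKM, and Itga2b at 173 to 260 FPKM while Itgb3 stayed at or below 0.905 FPKM. In DTR against Cre sorted cells 6 of the 17 were tested, 1 was higher and 3 were lower, where 18.9% of all genes were higher and 16.9% lower. Itgb4, Itgal and Itgam were among these calls, and the filter fixed their direction. In skin 14 of the 17 were tested in DTR against Cre mice and 15 in β-ala against PBS, with 0 past the threshold in either comparison (limma adjusted p) and 4 and 0 at an unadjusted p under 0.05.

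**Figure D3:**
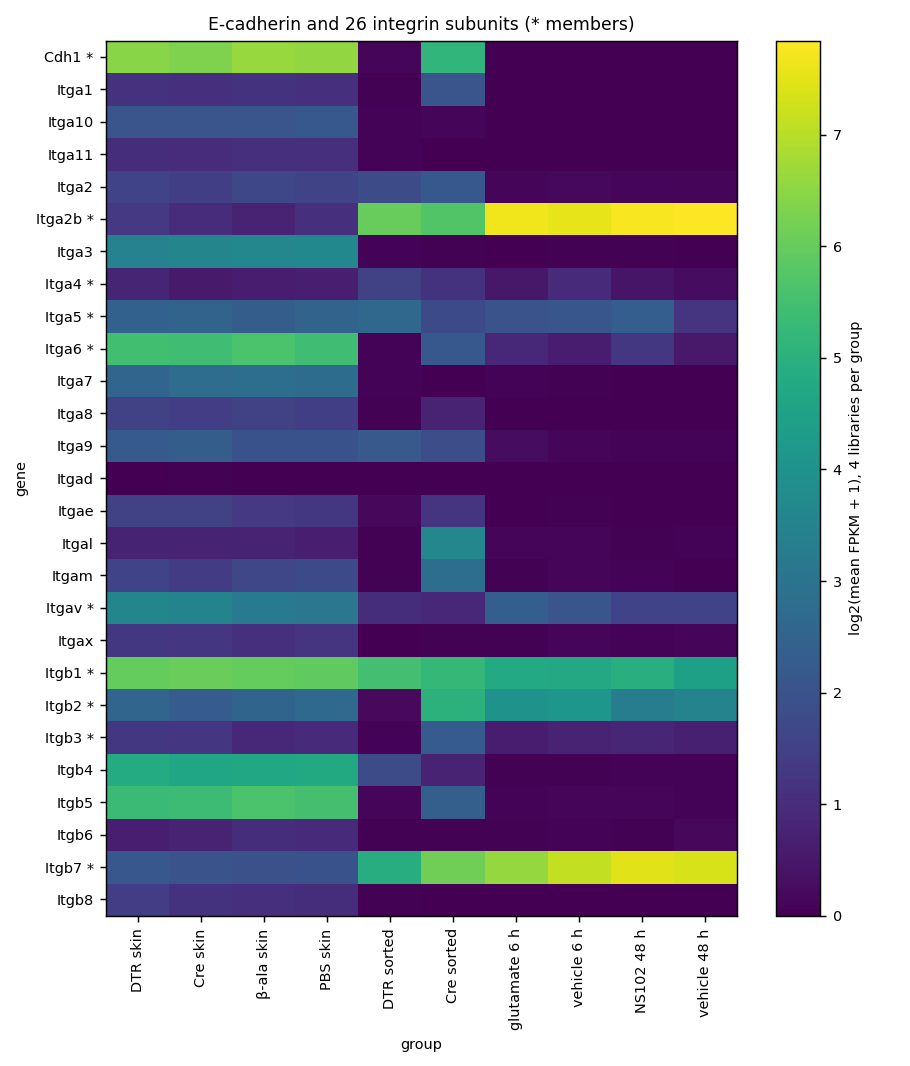
The map shows log2(mean FPKM + 1) of Cdh1 and all 26 integrin subunits (rows) in the 10 groups (columns, 4 libraries each), from dark (0) to bright (highest). Itga2b and Itgb7 are the brightest rows of the cultures and of Cre sorted cells, and Itga2b and Itgb1 those of DTR sorted cells, where Itgb1 averaged 43.9 FPKM and Itgb7 28.9 FPKM. Most other alpha chains are dark in the cultures.

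Genes that link integrins to the cytoskeleton, together with the tetraspanins, gave a list of 47. In sorted cells 37 were tested, of which 8 were higher and 10 lower in DTR cells, where 18.9% of all genes were higher and 16.9% lower. The median change was -0.050, against 0.13 over all genes. Rasgrp2, which activates Rap1 upstream of integrins, averaged 0.0413 FPKM in DTR cells and 9.72 FPKM in Cre cells, a change of -3.36 (SE 0.22; limma adjusted p = 1.84e-10). The tetraspanin Cd9 averaged 7.76 FPKM in DTR cells and 281 FPKM in Cre cells. Rap1b and the Rap1 effector Apbb1ip fell by 1.77 and 1.54 on the log2 scale. With glutamate 5 of 32 tested were higher and 25 lower, where 16.9% of all genes were higher and 62.4% lower, with a median change of -0.44, against -0.33 over all genes. After centring 10 were higher and 13 lower. Slc3a2, which binds integrin beta tails, averaged 219 FPKM with glutamate and 105 FPKM with vehicle, a change of 1.05 (SE 0.034). The focal adhesion gene Zyx fell by 1.62 and the leukocyte kindlin Fermt3 by 0.79. With NS102 17 of 31 were higher and 10 lower, where 30.8% of all genes were higher and 39.7% lower, with a median change of 0.23, against -0.057 over all genes. Flna, which crosslinks actin and binds beta tails, averaged 9.21 FPKM with NS102 and 2.28 FPKM with vehicle, a change of 1.63 (SE 0.088; limma adjusted p = 2.50e-08). The tetraspanins Cd81 and Cd82 fell by 1.197 and 0.797. In skin 7 of 46 were higher and 5 lower in DTR mice, where 7.38% of all genes were higher and 6.25% lower, with a median change of 0.0087, against 0.014 over all genes.

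Of 36 ligand genes, 7 were tested in sorted cells, of which 2 were higher and 1 lower in DTR cells, where 35.8% of all genes passed. Mfge8, a ligand of alpha v integrins, averaged 136 FPKM in DTR cells and 49.2 FPKM in Cre cells, a change of 1.48 (SE 0.27; limma adjusted p = 2.00e-04). Icam2, a beta 2 ligand, averaged 0.814 FPKM in DTR cells and 9.72 FPKM in Cre cells. With glutamate 0 of 7 were higher and 4 lower, against 79.3% of all genes past the threshold, and after centring 3 were higher and 1 lower. Icam2 averaged 2.26 FPKM with glutamate and 14.9 FPKM with vehicle. With NS102 6 of 8 were higher and 1 lower, where 70.5% of all genes passed, and Vwf, a ligand of alpha IIb beta 3, averaged 7.83 FPKM with NS102 and 1.07 FPKM with vehicle. In skin 2 of 31 were higher and 1 lower in DTR mice, where 13.6% of all genes passed, and 0 of 31 passed with β-ala (limma adjusted p), with 2 at an unadjusted p under 0.05.

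Partners of Cdh1 were read from a list of 29 cadherins, catenins and desmosomal genes, of which 6 were tested in sorted cells. Ctnna1, which couples E-cadherin to actin, averaged 38.4 FPKM in DTR cells and 16.9 FPKM in Cre cells, a change of 1.14 (SE 0.24; limma adjusted p = 8.53e-04). Plakophilin 3 (Pkp3) averaged 0.451 FPKM in DTR cells and 7.46 FPKM in Cre cells, a change of -2.54 (SE 0.23; limma adjusted p = 2.90e-08). Over the list 3 genes were higher and 1 lower. In skin 2 of 24 were higher in DTR mice and 0 lower, where 7.38% of all genes were higher, among them desmoplakin (Dsp), at a mean of 271 FPKM in DTR skin and 224 FPKM in Cre skin (change 0.28, SE 0.053; limma adjusted p = 0.0110). Of 8 genes for repressors of Cdh1, 3 were tested, and Zeb2 alone passed. It averaged 10.9 FPKM in DTR cells and 3.92 FPKM in Cre cells, a change of 1.28 (SE 0.24; limma adjusted p = 2.46e-04). Among all genes tested 18.9% were higher in DTR cells. Zeb1 and Tcf3 did not pass, with Zeb1 lower and Tcf3 higher on average in DTR cells. Snai1, Snai2, Twist1, Twist2 and Tcf4 were below the filter, each with a lower mean in DTR cells. Zeb2 averaged 1.81 to 4.94 FPKM in the culture groups, where Cdh1 was near 0. The part of these repressors in the Cdh1 levels was not tested. In the cultures 1 of 7 cadherin and catenin genes was higher and 6 lower with glutamate, where 62.4% of all genes were lower, and after centring 1 was higher and 2 lower. With NS102 4 of 7 were higher and 0 lower, where 30.8% of all genes were higher. Ctnna1 averaged 14.4 FPKM with glutamate and 24.7 FPKM with 6 h vehicle, and 38.1 FPKM with NS102 and 11.1 FPKM with 48 h vehicle.

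**Figure D4:**
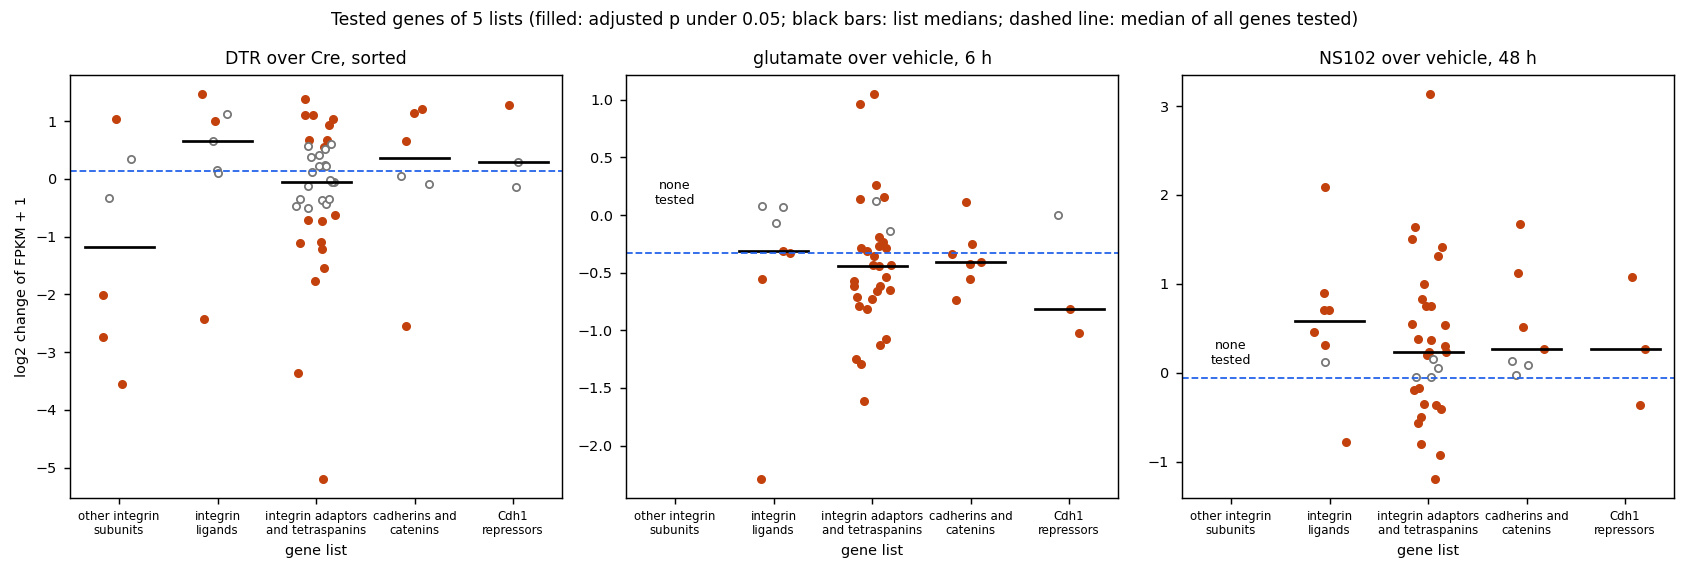
Each point is the fitted log2 change of FPKM + 1 of 1 tested gene, for 5 gene lists (x axis) in 3 comparisons, filled where the adjusted p was under 0.05. Black bars are list medians and the dashed line is the median of all genes tested, at 0.13, -0.33 and -0.057 in the 3 panels.

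The genes whose levels were most alike were found over the 40 libraries, among 9655 genes whose mean reached 5 FPKM in some group, by Pearson's r of log2(FPKM + 1). These points share materials and libraries, so r describes mostly the 3 materials. Itga2b was nearest to Fcer1a, the alpha chain of the IgE receptor, with r = 0.996, then Fam174b and Cd200r4. Itgb7 was nearest to Stap1, with r = 0.992, then Fcer1a and Csf2rb. Cdh1 was nearest to Dapk2, with r = 0.997, then Id1 and Serpine2. Itgb2 was nearest to Fam49b, with r = 0.935, then Ncf1 and C5ar1, and Itgb3 to Nfil3, with r = 0.960. Itga5 and Itga4 had the weakest nearest genes, Fgfr1 with r = 0.878 and B3galnt1 with r = 0.892.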

How the data were processed

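The table holds FPKM per gene, 23812 rows for 40 libraries, as deposited. STAR and Cufflinks and the build mm9 are named in the submitters' processing notes, without versions or order. Members and gene lists were chosen with earlier results of these data known. Named list genes were up to 4 per list and comparison, taken by adjusted p among those past the test whose higher group reached 5 FPKM; in sorted cells Itgb4, Itga1 and Itgae, and in cultures Itgal, Itgam, Itgax and Itgae, fall outside this rule and were named after their values were seen.

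Each comparison used limma 3.58.1 (R 4.3.3) on log2(FPKM + 1) with a trended variance, two-sided, over its own 8 libraries (16 for a difference of effects). Genes tested reached 1 FPKM in 4 or more of those 8 or 16 libraries, with Benjamini-Hochberg adjustment over all such genes. A gene under 1 FPKM throughout a group entered an 8-library comparison only through the other group, so the filter fixed its direction. This applies to list genes near 0 in a group as well as to members. Simulated data with 200 changed genes tested the procedure. Low FPKM values fell near whole-number ratios (within 0.03 on the log2 scale, ratios up to 6) for 55.2 to 78.0% of genes, which was too few to recover reads, so read depth is unknown. Replicate numbers were not used as pairs. Coordinates of genes are mm9, from the table; sequences are from RefSeq GRCm38.p6. Alternatives were pseudocounts of 0.1 and 5, no filter, median centring, a replicate block, a spread shared over groups and each library left out; leaving out pairs of replicates was added after seeing the data.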

Additional observations from a re-analysis of the deposited data

Results flagged for a closer look

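In 97 groups of 4 libraries searched, 7 had a library far from the other 3, and chance alone gives about 1 in 20. Cdh1 was at 0.353 FPKM in DTR sorted cells replicate 2, above 0.00678 to 0.0516 FPKM in the others. Cdh1 was at 0.0212 FPKM in 1 glutamate library and listed at 0 in the others. Itga2b was at 260 FPKM in vehicle 48 h replicate 1, against 214 to 221 FPKM in the other 3. Itga4 was at 0.392 FPKM in 1 β-ala skin library, against 0.566 to 0.587 FPKM in the other 3. Itgb7 was at 170 FPKM in NS102 replicate 4, against 181 to 183 FPKM in the other 3. Itga5 was at 4.83 FPKM in 1 DTR skin library, against 4.27 to 4.34 FPKM in the other 3. Itgb2 was at 4.88 FPKM in Cre skin replicate 3, against 3.31 to 3.55 FPKM in the other 3.

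The DTR over Cre change differed between sorted cells and skin, given as sorted minus skin on the log2 scale. The differences were -5.15 for Cdh1, -5.10 for Itgb2, -2.25 for Itgb3, -2.10 for Itga6, -1.37 for Itgb7 and 0.94 for Itga5. Material and sex cannot be told apart in them, and the part of other leukocytes in the sorted cells was not tested. The effects of the culture treatments, NS102 minus glutamate, differed by 1.198 for Itga5, 0.67 for Itgb7, 0.41 for Itga6, 0.40 for Itgb1, -0.27 for Itgav and -0.22 for Itga2b.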

How the results depend on the processing

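Of 1248 recomputed values, 1163 planned and 24 added ones kept their direction and their side of the threshold. In DTR against Cre skin the members past the test numbered 2 with no filter and 0 to 2 with a library left out, and all genes past it 729 with a shared spread and 779 to 1530 with a library left out, with 870, 779 and 996 without DTR replicates 1, 2 and 3 and 947 without Cre replicate 4. In β-ala against PBS skin 130 genes passed with a shared spread. Median centring raised the members past the test with glutamate to 6, and leaving out a library gave 3 to 4 with NS102. Without read depth, values near 0 carry no counting interval, and levels under 1 FPKM are given as listed.

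Signs changed as follows; the cause was not tested. Median centring gave 0.34 for Itga5 and 0.30 for Itgb2 with glutamate, -0.0043 for Itgav with NS102, 0.38, 0.73 and 0.81 for Cdh1, Itgb1 and Itga5 in sorted cells against skin, and -0.051 and -0.041 for Itgb1 and Itga6 in the difference of the culture effects. For Itgav with NS102, leaving out NS102 replicate 2, vehicle replicate 2 or vehicle replicate 4 gave -0.024, -0.00127 and -0.034 (range over all libraries left out -0.034 to 0.057), and leaving out NS102 replicates 1 and 2, added after seeing the data, gave -0.021. Without DTR replicates 1 and 2, also added, Itga2b and Itgb1 in sorted cells were at -0.088 and -0.00590. Itgb7 with β-ala was at 0.035 without β-ala replicate 3 (range over all libraries left out -0.14 to 0.035). The difference of the ablation effects for Itga2b was 0.15 with a pseudocount of 5, and 0.073, 0.091, 0.0018 and 0.031 without DTR replicate 3, DTR replicate 4, Cre replicate 1 and Cre replicate 2 of the sorted cells (range over all libraries left out -0.16 to 0.091).

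In no comparison did all 4 same-numbered pairs deviate together with a correlation over 0.1, so the numbers were not taken as pairs. Between 48 h and 6 h vehicle 3 of 4 pairs did (0.463, 0.197 and 0.114, against -0.070), and in DTR against Cre skin 3 of 4 libraries correlated best with their own number, a hint from the data only. With the replicate block 1507 genes passed in DTR against Cre skin and 3272 in sorted cells, and Itgb7 with NS102 had an adjusted p of 0.0542, the only call on a member that the block changed.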
